A study of Homo sapiens with 6 samples.

Results

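Genes of the interleukin 6 (IL6) cytokine family, their receptors and the transducer STAT3 were examined in HK2, a human epithelial cell line derived from the proximal tubule of the kidney and made immortal. The 10 genes were chosen by symbol from the 37202 genes of the deposited table: the ligands IL6, IL11, LIF and CLCF1, the receptor chains IL6R, IL6ST, OSMR and LIFR, the feedback inhibitor SOCS3, and STAT3. All 10 were found and all 10 passed the filter on low counts. Total RNA of 3 Control libraries (genotype normal) was compared with that of 3 libraries of cells that received an NR3C2 overexpression plasmid by lipid transfection (NR3C2-OE). NR3C2 encodes the mineralocorticoid receptor, and the study asked which genes respond to it. Both groups were the same line grown with 10% fetal bovine serum. The treatment of the Control cells, the time between transfection and harvest, any addition of a receptor ligand and the number of separate cultures are not stated in the labels. Every p-value thus rests on how far these libraries spread, and that spread may be technical.

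Cytokines of this family act through receptor complexes that contain the shared signalling chain gp130, encoded by IL6ST. IL6 binds IL6R before it engages gp130, LIF uses gp130 with LIFR, oncostatin M can use gp130 with OSMR, and IL11 has its own binding chain, IL11RA. The receptor-bound JAK kinases phosphorylate STAT3, which moves to the nucleus and induces, among other genes, SOCS3, an inhibitor of the same receptors. In the kidney, tubule cells are a known source of IL6 and IL11 after injury.

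The promoters of IL6 and IL11 are printed because these genes had the lowest edgeR p-values of the 10. The letters are RefSeq sequence of build GRCh38.p14, the 250 bases before the transcription start, written in the direction of the gene. The IL6 window is chr7:22726950-22727199 on the plus strand and the IL11 window is chr19:55370464-55370713 on the minus strand. Capitals mark the matches described after them.
IL6: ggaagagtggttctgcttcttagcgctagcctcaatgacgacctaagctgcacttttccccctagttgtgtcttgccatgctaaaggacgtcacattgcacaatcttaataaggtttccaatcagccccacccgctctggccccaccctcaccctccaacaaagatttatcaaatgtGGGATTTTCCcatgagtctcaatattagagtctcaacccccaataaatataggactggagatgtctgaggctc
IL11: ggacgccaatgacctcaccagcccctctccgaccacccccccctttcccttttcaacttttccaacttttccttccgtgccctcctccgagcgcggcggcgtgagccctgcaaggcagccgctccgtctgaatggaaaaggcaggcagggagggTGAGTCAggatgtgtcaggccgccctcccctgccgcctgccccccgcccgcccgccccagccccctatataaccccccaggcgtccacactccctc
The match in IL6 is to a form of the NF-kB motif, GGGNN followed directly by TTTCC, at 73 to 64 bases before the start. Of the 35116 windows of this length in the table, 1.73% hold that motif on either strand. The match in IL11 is to TGANTCA, the AP-1 motif, at 96 to 90 bases before the start, and 6.57% of windows hold it. The table had windows for 8 of the 10 genes, without LIF and CLCF1. LIFR had 3 windows, SOCS3 had 2 and the others had 1 each. The shares are per window, so a gene with more windows had more places for a match. A STAT motif, TTCNNNGAA, was found in LIFR windows (6.57% of all windows hold it). The full steroid receptor motif, AGAACA and TGTTCT with 3 bases between them, was in none of the windows of the 8 genes, and 0.00285% of all windows hold it. AGAACA alone, which is contained in the full motif, was found in IL6R and LIFR, and 12.4% of all windows hold it. Both strands were searched for each motif. These matches describe letters and do not show binding.

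The libraries held 77737375 to 132533971 estimated counts, and 21509 genes were tested. NR3C2 had 5.16 to 6.26 FPKM (fragments per kilobase of transcript, scaled to library size) in Control and 12.1, 6.95 and 7.41 FPKM in NR3C2-OE libraries 1, 2 and 3, with an edgeR adjusted p of 0.486. Of the 13 renal epithelial markers listed, 11 were found in the deposited table and 6 had a mean of at least 1 FPKM. The list summed to 497 to 527 FPKM in Control and 542 to 581 in NR3C2-OE, without overlap. Over all libraries, GGT1 ranged from 16.3 to 56.7 FPKM and PAX8 from 123 to 157. Which genes carried the difference between the sums was not tested. PAX8 averaged 142 FPKM, KRT8 199, KRT18 60.9, EPCAM 60.8, GGT1 40.2 and CDH2 33.5. CUBN, AQP1 and SLC34A1, which mark the mature proximal tubule, were each below 0.1. PAX2 was also below 0.1, and CDH1 averaged 0.117. Endothelial markers summed to at most 0.146 FPKM in any library. The fibroblast list, of which 3 of 6 genes reached 1 FPKM, summed to 12.9 to 15.7 FPKM in Control and 14.2 to 15.1 in NR3C2-OE. COL1A1 averaged 7.19 FPKM, LUM 5.51, DCN 1.32 and THY1 0.283, while COL3A1 and PDGFRB were below 0.1. The leukocyte list summed to 21.96 to 22.4 FPKM in Control and 25.2 to 31.8 in NR3C2-OE. Of its 7 genes, 5 were found in the deposited table and 1 reached 1 FPKM (CD68, a lysosomal protein, 24.0 FPKM). CD14 and CSF1R averaged 0.311 and 0.830, and ITGAM and LYZ were below 0.1. The part of these cells in the results was not tested. In bulk RNA, fewer cells that express a gene and less RNA per cell cannot be told apart.

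The mean FPKM of each ligand was lower in NR3C2-OE than in Control, that of IL11 by 31.9% and that of IL6 by 16.2%. Among the receptor chains, the means of LIFR (by 11.2%), OSMR (by 0.933%) and IL6R (by 0.33%) were also lower. The mean of IL6ST was 14.8% higher. The mean of LIFR thus differed by a larger share than that of LIF (8.23% lower) or CLCF1. All receptor chains and the ligand CLCF1 overlapped between the groups. For IL6, IL11, LIF and SOCS3, the FPKM of all 3 NR3C2-OE libraries lay below the 3 Control values. None of these differences passed the edgeR test over all genes. Of the 10 genes, 0 were called at an adjusted p below 0.05, where 0.0279% of the 21509 tested genes were called. At an unadjusted p below 0.05, 3 of the 10 were lower (IL6, IL11 and LIF) and 0 were higher, against 4.76% and 4.43% of tested genes. DESeq2 called 2 of the 10, IL6 and IL11, both lower, against 1.52% of tested genes called and 0.828% called lower. The groups did not overlap in FPKM for 4 of the 10 genes with NR3C2-OE lower and for 0 with NR3C2-OE higher, against 6.65% and 9.38% of tested genes. In counts scaled to library size (CPM) they did not overlap for the same 4 genes, all lower, against 8.75% of tested genes lower and 7.96% higher. Log2 fold changes (NR3C2-OE over Control) were negative for 8 of the 10 and for 49.8% of tested genes. Their median was -0.12, and that of all tested genes 0.00071. The genes were chosen with earlier results of these data known, so these shares are descriptions.

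**Figure D1:**
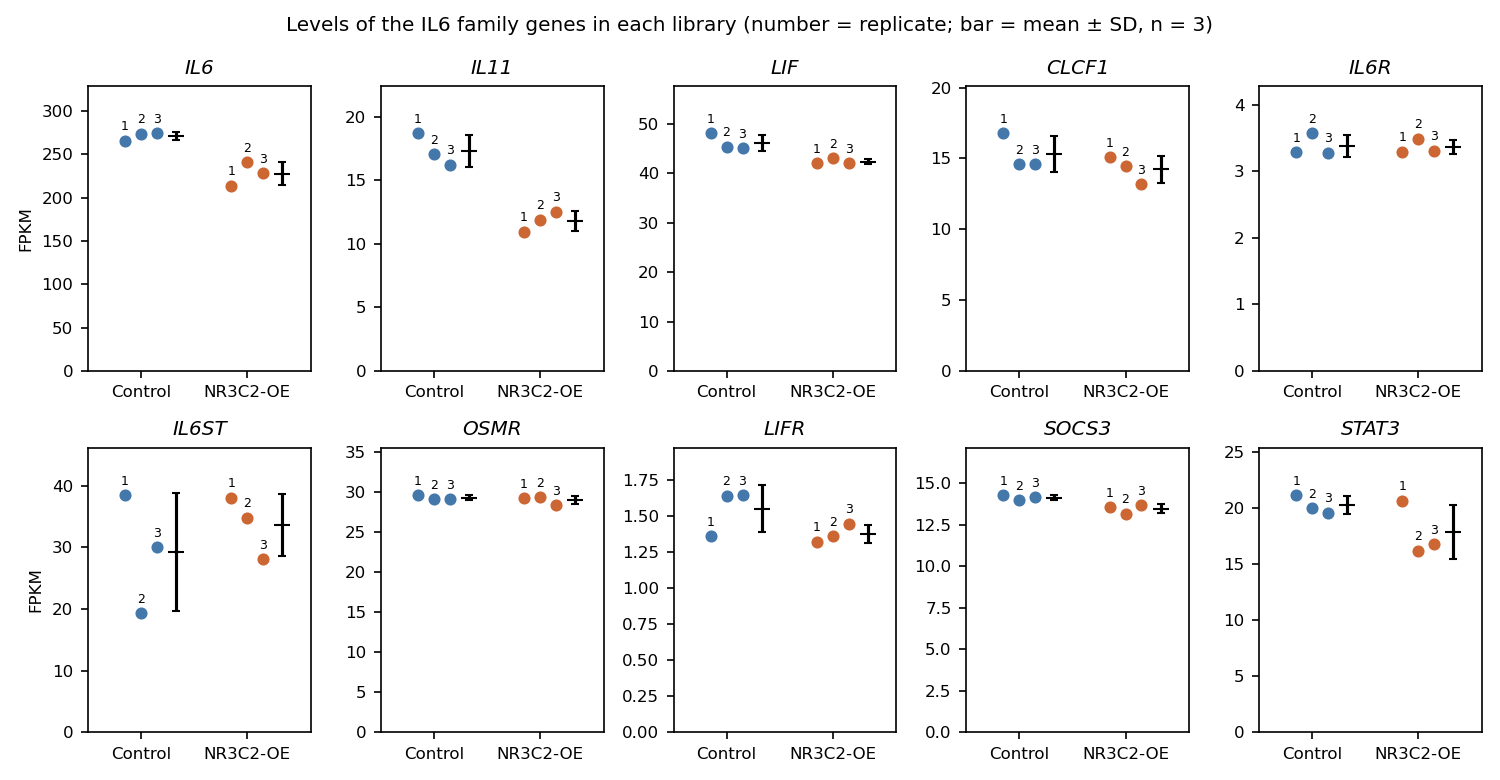
FPKM of the 10 genes (vertical axes, each from 0) in the 3 Control and 3 NR3C2-OE libraries, with points numbered by replicate and bars giving mean ± SD. The groups do not overlap for IL6, IL11, LIF and SOCS3, and IL6ST ranges from 19.3 to 38.5 FPKM within Control.

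IL6, the cytokine of acute inflammation, was the most abundant of the 10. It had 266, 274 and 274 FPKM in Control libraries 1, 2 and 3 and 214, 240.4 and 228 FPKM in NR3C2-OE libraries 1, 2 and 3. The lowest Control library lay above the highest NR3C2-OE library. The means were 271 ± 4.68 and 227 ± 13.3 FPKM (SD, n = 3 each). The counts gave a log2 fold change of -0.26 (SE 0.049, 95% interval -0.38 to -0.14), with an edgeR adjusted p of 0.263 and an unadjusted p of 0.0015. DESeq2 gave an adjusted p of 0.0139. With its Control mean, IL6 ranked 402nd among tested genes by FPKM.

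IL11, a cytokine linked to fibrosis, had 18.7, 17.0 and 16.2 FPKM in Control libraries 1, 2 and 3 and 10.9, 11.9 and 12.5 FPKM in NR3C2-OE libraries 1, 2 and 3. The gap between the groups was wider than the spread within either. The means were 17.3 ± 1.26 and 11.8 ± 0.804 FPKM (SD, n = 3 each), 31.9% lower in NR3C2-OE. The log2 fold change of -0.56 (SE 0.071, 95% interval -0.74 to -0.39) had an edgeR adjusted p of 0.148 and was the 24th smallest p of all tested genes. DESeq2 gave an adjusted p of 4.0e-07. The FPKM ratio of IL6 to IL11 was 14.2 to 16.9 in Control and 18.2 to 20.2 in NR3C2-OE, so IL11 differed by a larger factor than IL6. The difference between the pair was not tested.

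LIF, the leukemia inhibitory factor, had 48.1, 45.4 and 45.1 FPKM in Control and 42.1, 43.0 and 42.0 FPKM in NR3C2-OE. The groups did not overlap, but the difference was small. The log2 fold change was -0.14 (SE 0.041, 95% interval -0.24 to -0.04; edgeR adjusted p = 0.422). CLCF1, the cardiotrophin-like cytokine, had 16.8, 14.6 and 14.6 FPKM in Control and 15.1, 14.4 and 13.2 FPKM in NR3C2-OE. Its groups overlapped, and the log2 fold change of -0.12 (SE 0.087) had a 95% interval from -0.33 to 0.09. That fold change was -0.05 without Control library 1 and -0.06 without NR3C2-OE library 3.

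Summed over the 4 ligands, FPKM was 349 to 351 in Control and 282 to 309.8 in NR3C2-OE. IL6 made up most of this sum, 76.1% to 78.3% in Control and 75.8% to 77.6% in NR3C2-OE, so its share was about the same in both groups.

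The 4 receptor chains overlapped between the groups, and each 95% interval of the log2 fold change included 0. IL6R, the IL6-binding chain, was scarce, with 3.29, 3.57 and 3.28 FPKM in Control and 3.30, 3.49 and 3.31 FPKM in NR3C2-OE. IL6 exceeded it 76.7 to 83.5-fold in FPKM in Control and 64.8 to 68.9-fold in NR3C2-OE. The log2 fold change of IL6R was 0.04 (SE 0.063, 95% interval -0.11 to 0.19) in the counts and -0.0033 on the log2(FPKM + 1) scale. OSMR, the oncostatin M chain, was the steadiest of the 4, at 29.6, 29.1 and 29.1 FPKM in Control and 29.3, 29.4 and 28.4 in NR3C2-OE. Its log2 fold change of -0.02 had a 95% interval from -0.12 to 0.08. LIFR, the LIF-binding chain, was the least abundant of the 10 genes, with 1.36, 1.64 and 1.65 FPKM in Control and 1.32, 1.36 and 1.45 FPKM in NR3C2-OE. Control library 1 lay among the NR3C2-OE values, and the log2 fold change of -0.13 had a 95% interval from -0.33 to 0.07.

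IL6ST (gp130) varied more between libraries than any other of the 10 genes. It had 38.5, 19.3 and 30.0 FPKM in Control libraries 1, 2 and 3 and 38.0, 34.8 and 28.1 FPKM in NR3C2-OE libraries 1, 2 and 3. Control library 2 was low in the counts as well, with 15333 estimated counts and 164 CPM against 260.4 and 266 CPM in the other Control libraries. The log2 fold change was 0.16 (SE 0.19, 95% interval -0.29 to 0.61), and without Control library 2 it was -0.034. Estimated counts and FPKM also parted for this gene. The estimated counts as a share of the library total, without the TMM scaling of the CPM values above, were divided by FPKM, a ratio that reflects the effective transcript length used. It came to 6.76 and 6.75 kilobases in Control library 1 and NR3C2-OE library 1, and to 8.07 to 8.78 in the other 4 libraries. The highest library exceeded the lowest 1.30-fold for IL6ST, 1.13-fold for LIFR, 1.07-fold for IL6R, and 1.01-fold to 1.06-fold for the other 7 genes. Soluble and membrane forms of gp130 are known to arise from different transcripts, but the table gives no values per transcript, and the part of transcript usage in this spread was not tested.

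**Figure D2:**
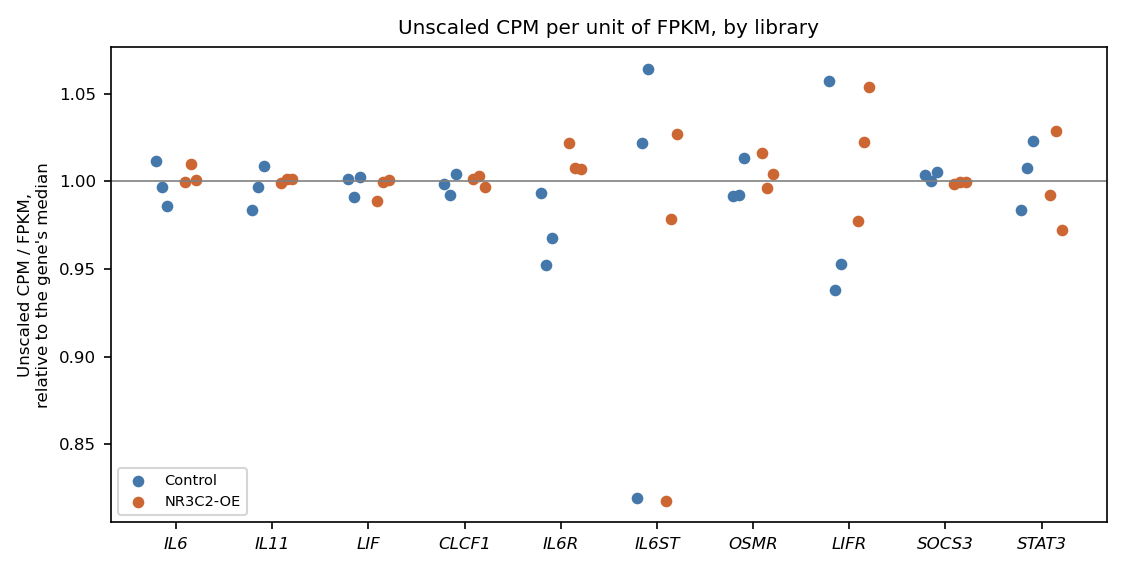
Unscaled CPM (estimated counts per library total, without TMM scaling) divided by FPKM, relative to each gene's median over the 6 libraries (vertical axis), for the 10 genes (horizontal axis). IL6ST in replicate 1 of both groups lies furthest from 1, while the 4 ligands and SOCS3 stay close to it.

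Downstream, SOCS3 had 14.3, 14.0 and 14.1 FPKM in Control and 13.6, 13.2 and 13.7 FPKM in NR3C2-OE. The groups did not overlap, yet the difference of the means was 4.71% of the Control level and its log2 fold change of -0.09 (SE 0.047) had a 95% interval from -0.21 to 0.02. STAT3 had 21.1, 20.0 and 19.6 FPKM in Control and 20.6, 16.2 and 16.8 FPKM in NR3C2-OE. NR3C2-OE libraries 2 and 3 were below all Control libraries, and NR3C2-OE library 1 lay among them. The log2 fold change of STAT3 was -0.21 (SE 0.098, 95% interval -0.44 to 0.03; edgeR adjusted p = 0.598). Without NR3C2-OE library 1 it was -0.33, with an edgeR adjusted p of 0.272. NR3C2-OE library 1, where NR3C2 was highest, had the lowest IL6 and IL11 of the 6 libraries and the highest STAT3 of its group. From NR3C2-OE library 2 to 3, NR3C2 was higher (6.95 and 7.41 FPKM), IL11 also higher (11.9 and 12.5) and IL6 lower (240.4 and 228). A relation between the level of NR3C2 and these genes was not tested.

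**Figure D3:**
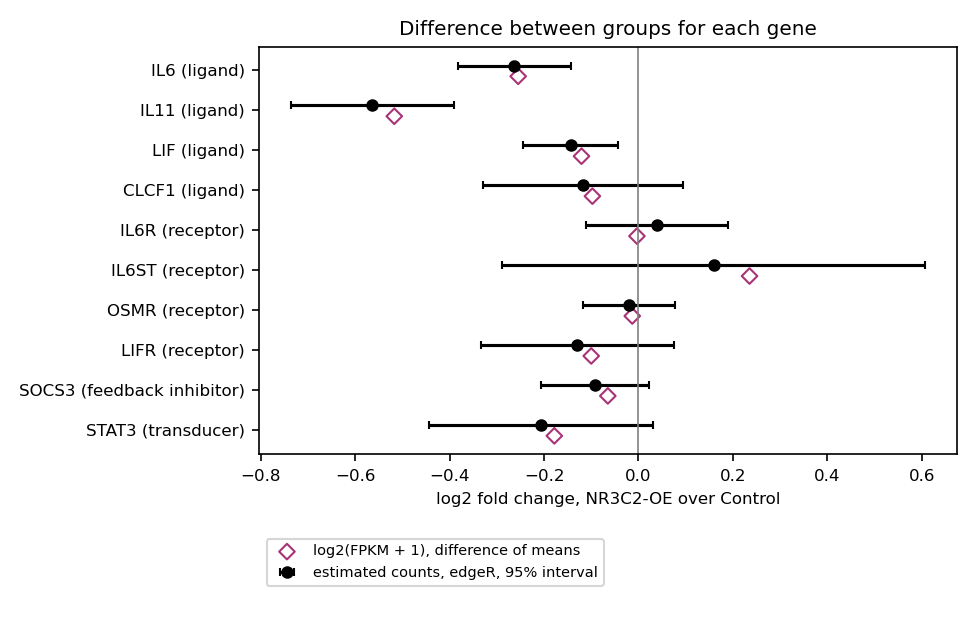
Log2 fold change of NR3C2-OE over Control (horizontal axis) for the 10 genes, as edgeR estimates with 95% intervals from the counts (black) and as differences of mean log2(FPKM + 1) (diamonds). The unadjusted intervals of IL6, IL11 and LIF lie below 0, and those of the other 7 genes include 0.

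In Control cells the order of levels by mean FPKM was IL6 (271), LIF (46.2), OSMR and IL6ST (29.3 each), STAT3 (20.2), IL11 (17.3), CLCF1 (15.3), SOCS3 (14.1), IL6R (3.38) and LIFR (1.55). IL6ST overlapped OSMR and STAT3, its neighbours in this order, and IL11 overlapped CLCF1. The other neighbours were separated in all 3 Control libraries. In NR3C2-OE, IL11 (11.8 FPKM) stood below CLCF1 (14.2) and SOCS3 (13.5), without overlap between IL11 and either.

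Genes overlap several of these loci in the GENCODE 29 annotation, and the libraries were strand-specific, though whether the counting used strand is not given in the sources used here. STEAP1B, on the opposite strand to IL6, had 558 to 1851 estimated counts per library, against 24993 to 52285 for IL6. RAD9A, opposite to CLCF1, had 743 to 1183, against 2286 to 3940 for CLCF1. RICTOR, opposite to OSMR, had 3010 to 4920, against 14065 to 24190 for OSMR. A gene on the same strand as CLCF1, AP003419.1, had 0 to 313 counts. Opposite to IL6ST, the processed pseudogene AC016596.1 had 74 to 122 counts, and opposite to LIF, AC004264.1 had 118 to 162. LIFR-AS1, antisense to LIFR, had 7 to 38. How reads were shared between overlapping genes was not tested.

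The 6 libraries were also searched for genes whose scaled log2 CPM followed IL6 or IL11 most closely, among the 9713 other named genes with a mean of at least 10 CPM. For IL6 these were B4GALT2, HPF1 and TAF9B (Pearson r 0.997, 0.994 and 0.989 over 6 libraries), and for IL11 CHD8, ZDHHC12 and UGDH (0.999, 0.995 and 0.995). With 6 libraries that share their group difference, 85 genes for IL6 and 136 for IL11 exceeded 0.95, so these names are a description. Their own log2 fold changes ranged from -0.87 for ZDHHC12 to -0.05 for HPF1.

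Other genes of the pathway were read from 7 lists that together held 91 tested genes, of which 4 belong to the 10 genes above. In edgeR's test 0 of the 91 were called, and 4 were higher and 6 lower at an unadjusted p below 0.05 (10.99%, against 9.19% of all tested genes). DESeq2 called 2 of the 91, ADAM17 and SAA2, against 1.52% of all tested genes. The counts per list given below stand beside the same 9.19% and are descriptions. Separation of the FPKM groups, where given, stands beside 6.65% of all tested genes lower and 9.38% higher. The median log2 fold change of the 91 genes was 0.02.

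The remaining ligands and receptor chains of the family were scarce, apart from EBI3, a subunit shared by heterodimeric cytokines, with 14.2 ± 0.460 and 14.7 ± 0.859 FPKM in Control and NR3C2-OE. Of 5 tested genes, 0 had an unadjusted p below 0.05. CNTF had 0.850, 0.125 and 0.933 FPKM in Control and 0.861, 1.00 and 0.790 in NR3C2-OE, so its spread lay within Control. IL27RA (log2 fold change -0.09) and IL31RA (-0.19) were below 1 FPKM in all libraries. IL11RA, named here after its values were seen because it binds IL11, had 0.946 ± 0.127 and 0.877 ± 0.131 FPKM. OSM, a ligand of OSMR, had at most 5 counts in any library and was not tested.

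Of 4 genes that shed IL6 receptors from the cell surface or support this shedding, 1 was higher at an unadjusted p below 0.05. ADAM17, the protease that releases soluble IL6R, had 17.8, 16.8 and 17.6 FPKM in Control and 18.0, 21.6 and 18.9 FPKM in NR3C2-OE. The groups came close without overlapping, and the log2 fold change was 0.18 (SE 0.041, edgeR adjusted p = 0.323, DESeq2 adjusted p = 0.0451). ADAM10, which also cleaves IL6R, had a log2 fold change of 0.02 (SE 0.073), and the iRhom genes RHBDF1 and RHBDF2, which help ADAM17 mature, had 0.02 and 2.9e-05.

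Among 12 JAK kinases, other STATs and adaptors, 0 were higher and 1 was lower at an unadjusted p below 0.05. The lower one was the phosphatase adaptor PTPN11 (SHP2), with a log2 fold change of -0.11 (SE 0.043) and overlapping FPKM. STAT2, a transducer of interferons, had 5.54, 5.32 and 5.83 FPKM in Control and 7.41, 7.09 and 7.48 FPKM in NR3C2-OE. Its groups did not overlap, and its log2 fold change of 0.21 (SE 0.092) had an edgeR adjusted p of 0.560 and an unadjusted p of 0.0584. STAT6, the transducer of IL4, averaged 63.7 ± 3.75 and 66.1 ± 1.37 FPKM (log2 fold change 0.05, SE 0.044). JAK1, the kinase most tied to gp130, averaged 173 ± 20.0 FPKM in Control and 165 ± 4.29 in NR3C2-OE, a log2 fold change of -0.09 (SE 0.085). GAB1, a docking adaptor, had -0.44 (SE 0.32).

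Of 15 inhibitors of the pathway other than SOCS3, 1 had an unadjusted p below 0.05. This was the phosphatase PTPN3, with 10.9 ± 0.128 (Control) against 12.3 ± 0.738 FPKM and a log2 fold change of 0.16 (SE 0.056, edgeR adjusted p = 0.492). PTPN6 (SHP1), a phosphatase of JAK kinases, had 0.16 (SE 0.077), CISH 0.26 (SE 0.15) and the STAT inhibitor PIAS4 0.08 (SE 0.049). The FPKM of PTPN3, PTPN6 and PIAS4 did not overlap between the groups, with NR3C2-OE higher, and that of CISH overlapped. PTPN1 and PTPN2, the most abundant of the list by FPKM, had log2 fold changes of -0.0098 and -0.09.

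Of 27 tested genes known as STAT3 targets, 1 was higher and 3 were lower at an unadjusted p below 0.05, and 15 had positive and 12 negative log2 fold changes (median 0.02). SAA2, an acute phase protein, was the higher one, with 9.30, 10.7 and 10.1 FPKM in Control and 14.6, 14.0 and 12.4 FPKM in NR3C2-OE. Its groups did not overlap, and the log2 fold change of 0.45 (SE 0.086) had an edgeR adjusted p of 0.264 and a DESeq2 adjusted p of 0.0014. SAA1 and SAA2 are near-identical copies, so the division of reads between them is uncertain. The lower ones were the growth regulator MYC (log2 fold change -0.51, SE 0.19), cyclin D1 (CCND1, -0.23, SE 0.055) and the mitotic survivin gene BIRC5 (-0.44, SE 0.16). The FPKM of MYC and BIRC5 overlapped between groups, and that of CCND1 did not. The abundant targets HIF1A (282 ± 10.9 and 278 ± 10.8 FPKM) and TIMP1 (147 ± 12.6 and 169.7 ± 11.4 FPKM) showed log2 differences of 0.02 and 0.17. The groups of TIMP1 came close without overlapping, and those of HIF1A overlapped.

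Of 19 regulators of IL6 transcription or mRNA decay, 1 was lower at an unadjusted p below 0.05. It was FOS, an AP-1 subunit, at 0.599 ± 0.0693 and 0.470 ± 0.150 FPKM with overlapping groups (log2 fold change -0.84, SE 0.22, in the counts). CEBPB, which binds the IL6 promoter, had 45.4 ± 3.05 and 53.7 ± 5.58 FPKM with overlapping groups (log2 fold change 0.22, SE 0.093, edgeR adjusted p = 0.550). JUN (-0.06), the mRNA decay factor ZFP36L1 (0.17) and NFKBIZ, an NF-kB cofactor that promotes IL6 induction (203 ± 10.3 and 192 ± 7.19 FPKM, log2 fold change -0.07), had overlapping FPKM.

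Of 12 tested upstream cytokines and receptors, 1 was higher and 1 lower at an unadjusted p below 0.05. TGFB2, a TGF-beta ligand, had 39.8, 39.3 and 35.3 FPKM in Control and 29.9, 31.6 and 34.9 FPKM in NR3C2-OE. These groups came close without overlapping, and the log2 fold change was -0.27 (SE 0.074, edgeR adjusted p = 0.407). TGFBR1, the type I receptor of TGF-beta, was higher, with 7.88 ± 1.504 and 10.5 ± 0.683 FPKM. Its groups did not overlap (log2 fold change 0.46, SE 0.15, edgeR adjusted p = 0.469). TGFBR2 (0.08, SE 0.041) and the TNF receptor TNFRSF1A (0.12, SE 0.057) did not reach an unadjusted p below 0.05. The FPKM groups of TNFRSF1A did not overlap, with NR3C2-OE higher, and those of TGFBR2 overlapped. IL1B, a strong inducer of IL6, had at most 19 counts in any library and was not tested.

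**Figure D4:**
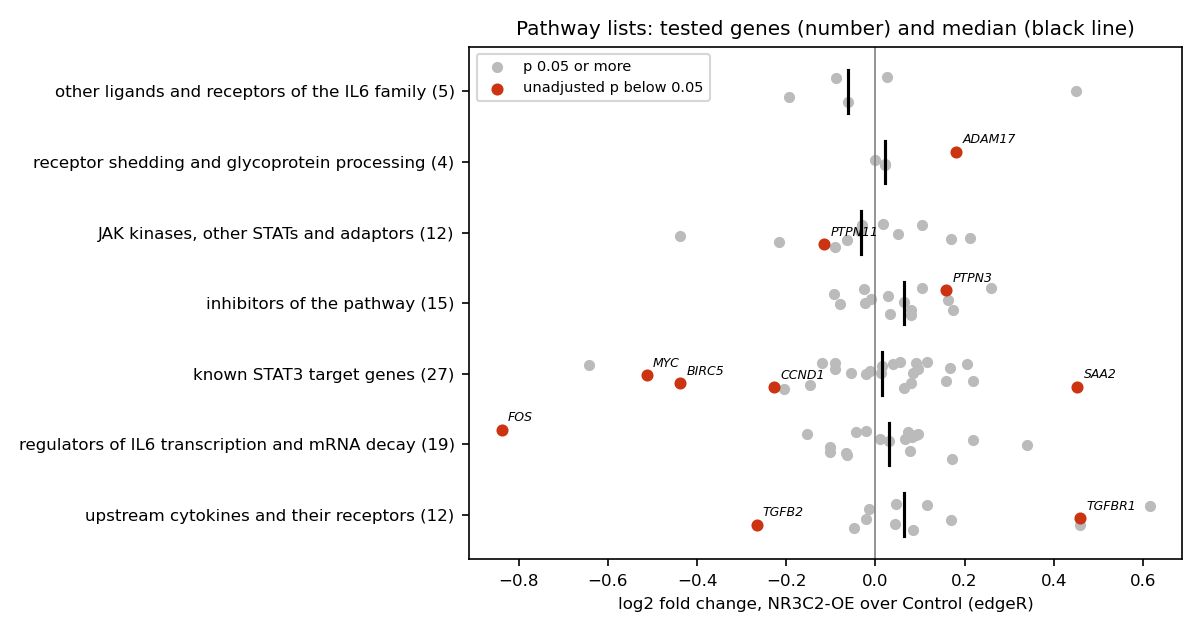
Log2 fold change of NR3C2-OE over Control (horizontal axis) for the tested genes of the 7 pathway lists, with black lines at the list medians and genes with an unadjusted edgeR p below 0.05 in red. The list medians lie between -0.06 and 0.06, and red points fall on both sides of 0.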

How the data were processed

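RNA of 3 Control and 3 NR3C2-OE libraries was sequenced on an Illumina platform as paired ends from strand-specific libraries, per the labels' protocols. The submitters' processing notes name cutadapt 1.2.1 for adapter trimming. The aligner, build, annotation and counting program are not given in the sources used. The deposited table listed 37202 genes, each with an FPKM value and an estimated count from the authors for every library. The deposited estimated counts were whole numbers, among which the value 4 occurred 8694 times against 5772 for 3 and 5504 for 5. The cause was not tested. All columns of values were mapped by title. Of the rows, 736 carried no Ensembl identifier and held 2.88% to 2.98% of the counts. They were kept in library totals and tests.

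Counts were filtered with filterByExpr (default settings), scaled by TMM and tested with the quasi-likelihood functions of edgeR 4.0.16 (R 4.3.3), with the group alone in the model. Tests were two-sided, with Benjamini-Hochberg adjustment over all 21509 tested genes and a threshold of 0.05. Standard errors came from the F statistic, and 95% intervals used each gene's moderated degrees of freedom (median 6.36). The edgeR steps were tested on simulated data, in which most genes given the largest changes were called. Fewer of those given moderate changes were called. Of those given small changes, of the size seen for the 10 genes, few or none were called. Some genes given no change were called as well. An exact permutation test of 3 against 3 libraries cannot give a two-sided p below 0.1, and IL6, IL11, LIF and SOCS3 were at that smallest p on log2(FPKM + 1).

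Alternatives were the removal of each library in turn, a replicate block, DESeq2 1.42.0 (size factors alone, or its Wald test), no filter, a minimum of 50 counts in 3 libraries, limma 3.58.1 (voom, or trend on log2 FPKM with a pseudocount of 1 or 0.1), and counts divided by 4. The 10 genes, the lists and the alternatives were chosen with earlier results of these data known. The text names NR3C2, the 10 genes, up to 4 genes per list by p and 2 by FPKM, and the 3 genes closest to IL6 and to IL11. Some genes of the lists are not reported here. Exceptions to the rule are stated or are overlapping or marker genes. Promoter sequences came from RefSeq (GRCh38.p14), and overlaps from GENCODE 29 without positions.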

Additional observations from a re-analysis of the deposited data

How the results depend on the processing

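IL6 and IL11 were lower in NR3C2-OE under all 15 alternatives (log2 fold change -0.30 to -0.23 and -0.61 to -0.52), and so were LIF, CLCF1, OSMR, LIFR, SOCS3 and STAT3. The alternatives reuse the same libraries, so their shared direction is a description and not separate evidence. Without 1 library, the log2 fold change ranged from -0.17 (without NR3C2-OE library 1) to -0.05 (without Control library 1) for CLCF1, from -0.19 (without NR3C2-OE library 3) to -0.08 (without NR3C2-OE library 1) for LIFR, from -0.33 (without NR3C2-OE library 1) to -0.14 for STAT3, from -0.043 (without NR3C2-OE library 1) to -0.0027 (without NR3C2-OE library 3) for OSMR, and from 0.018 (without Control library 3) to 0.069 (without Control library 2) for IL6R. The DESeq2 Wald test called 328 genes over the table, 2 of the 10 genes and 2 pathway genes, with log2 fold changes of -0.26 for IL6 and -0.56 for IL11. The other 14 alternatives called 0 of the 10 genes and 0 pathway genes. Without 1 library, edgeR called 5 to 18 genes over the table (6 with all), and 6 to 13 pathway genes had an unadjusted p below 0.05 (10 with all). The log2 fold change of IL6ST without 1 library ranged from -0.034 (without Control library 2) to 0.28, and the cause was not tested. That of IL6R was -0.0033 on log2(FPKM + 1) and -0.0040 on log2(FPKM + 0.1), on which limma called 11 genes over the table. With the replicate number as a block, 0 genes were called. Deviations of same-numbered libraries from their group means correlated at 0.027, 0.016 and 0.0038, below the minimum of 0.1 set for treating them as pairs. Not every library correlated best with its own number. With 3 libraries per group this check cannot exclude that the numbers pair the libraries. The 10 genes had 1236 or more estimated counts in each library, and 3 libraries per group limit the precision.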
